A study of Mus musculus with 6 samples.

Results

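The collagen genes of the mouse were taken as the protein-coding genes whose GENCODE M21 symbol consists of Col, a number, the letter a and a number. There were 44 of them among the 54532 gene IDs measured. They fell into 11 fibrillar genes, 6 basement membrane (type IV) genes and 27 genes of other types. RNA sequencing levels were available as FPKM, fragments scaled by exon length and by library size, for heart ventricles of E12.5 mouse embryos. The 3 knockout libraries were labelled LSD1CKO, a conditional knockout of Kdm1a, and the 3 control libraries CTL. Kdm1a encodes LSD1, a histone demethylase that acts in repressor complexes. The sources used here give neither the Cre driver, and so the cells in which Kdm1a was removed, nor the alleles that the controls carried. They also do not say whether the libraries of a group came from separate embryos, litters or pools. The p-values thus measure the spread between these libraries, which may be partly or, for the controls, wholly technical. The series concerns repression by LSD1 in heart development. For the collagens, the comparison asks whether the RNA of the matrix genes differed between the knockout and control ventricles.

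Collagens are the main structural proteins of the extracellular matrix. Their chains wind around each other into a rope-like helix, whose core has room only for glycine, so the chains are built from the repeat Gly-X-Y. Fibrillar collagens pack side by side into cable-like fibrils that bear tension. Type IV collagens instead form a flexible sheet under epithelia, around muscle cells and under endothelium. The remaining types decorate fibrils, form beaded filaments or networks, or sit in the cell membrane. In the embryonic heart, collagens are made largely by cushion mesenchyme, epicardium-derived cells and endothelium, while cardiomyocytes contribute little fibrillar collagen.

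The difference between a fibril chain and a basement membrane chain can be read in the coding sequence. Stretches of 162 bases from the GENCODE M21 transcripts (GRCm38) are shown for Col1a1, the most abundant fibrillar gene, for Col5a1 and Col5a2, whose ratio separated the groups, and for Col4a1. Glycine codons of the repeat are in capitals. The stretches cover residues 168 to 221 of Col1a1, 559 to 612 of Col5a1, 211 to 264 of Col5a2 and 136 to 189 of Col4a1, counted from the start codon.
Col1a1: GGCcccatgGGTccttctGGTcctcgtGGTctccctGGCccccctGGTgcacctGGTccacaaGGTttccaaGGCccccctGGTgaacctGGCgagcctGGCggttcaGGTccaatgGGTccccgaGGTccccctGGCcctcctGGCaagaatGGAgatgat
Col5a1: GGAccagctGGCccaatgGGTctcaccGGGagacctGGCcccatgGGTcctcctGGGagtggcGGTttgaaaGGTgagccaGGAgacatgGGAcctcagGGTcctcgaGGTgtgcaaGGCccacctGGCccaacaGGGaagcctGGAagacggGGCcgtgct
Col5a2: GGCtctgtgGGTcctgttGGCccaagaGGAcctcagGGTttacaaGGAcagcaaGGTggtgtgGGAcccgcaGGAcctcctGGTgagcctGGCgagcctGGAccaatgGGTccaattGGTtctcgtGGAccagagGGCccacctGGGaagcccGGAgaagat
Col4a1: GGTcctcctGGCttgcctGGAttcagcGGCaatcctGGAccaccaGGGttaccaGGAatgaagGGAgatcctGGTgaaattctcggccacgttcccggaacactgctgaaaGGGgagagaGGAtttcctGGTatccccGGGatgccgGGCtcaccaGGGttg
In the fibrillar stretches a glycine codon opens each of 18 triplets without a break. In Col4a1 the repeat is interrupted for 10 residues, one of the many interruptions that make type IV collagen flexible. Over the whole coding sequences, the longest unbroken run of Gly-X-Y in the 11 fibrillar genes had a median of 338 triplets (216 to 344), and runs of at least 5 triplets numbered 2 to 3 per gene. In the 6 type IV genes the longest run was 39 to 66 triplets and the runs numbered 22 to 27. Exons of exactly 54 bases, a unit of 6 triplets, recur in fibrillar genes. They numbered 21 to 33 per fibrillar gene, 1 to 3 per type IV gene and 0 to 28 (median 3) per gene of other types.

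The libraries held 17898946 to 20076028 reads, recovered from the steps of the FPKM values, and 3 reads in a gene with 1 kb of exons corresponded to 0.155 to 0.169 FPKM. This limit covers counting error only. Kdm1a had 10.7, 11.8 and 10.96 FPKM in the knockout libraries and 29.99, 29.7 and 22.8 FPKM in the control libraries (limma adjusted p = 0.00274), with the groups well apart. Knockout replicate 3 had 12.1 FPKM of Xist and 0 FPKM of Ddx3y, the pattern of a female embryo. The other 5 libraries had 13.1 to 14.3 FPKM of Ddx3y, and knockout replicate 1 had 1.11 FPKM of Xist besides. Knockout replicate 3 was thus not made from the same material as knockout replicates 1 and 2. Control replicate 3 stood apart in collagen RNA and is described with the results it touches. In bulk tissue, fewer cells of a type and less RNA per cell cannot be told apart.

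Of the 44 collagen genes, 28 reached the test level, 0.5 FPKM on average over all libraries, and entered the test, a limma fit of log2(FPKM + 1) over all 14149 genes at that level. Folds on this scale understate the change of low genes. No collagen passed an adjusted p of 0.05 in either direction, where 2.37% of all tested genes did. The lowest adjusted p among the collagens was 0.101, for Col23a1. An unadjusted p under 0.05 was reached by 6 of the 28 collagens and by 16.1% of all genes. Knockout and control libraries did not overlap for 6 of the 28 collagens, the same share as the 21.4% of all genes. Of these 6, 3 were higher in the knockout (11% of all genes) and 3 lower (10.4% of all genes). The median log2 change of the tested collagens was 0.03, beside -0.02 for all tested genes, with 15 collagens above 0 and 13 below. Of all tested genes, 45.9% were above 0. A p that misses the threshold does not show that levels were alike: the 95% interval of Col1a1, for example, reached from -0.54 to 0.50 on the log2 scale.

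**Figure D1:**
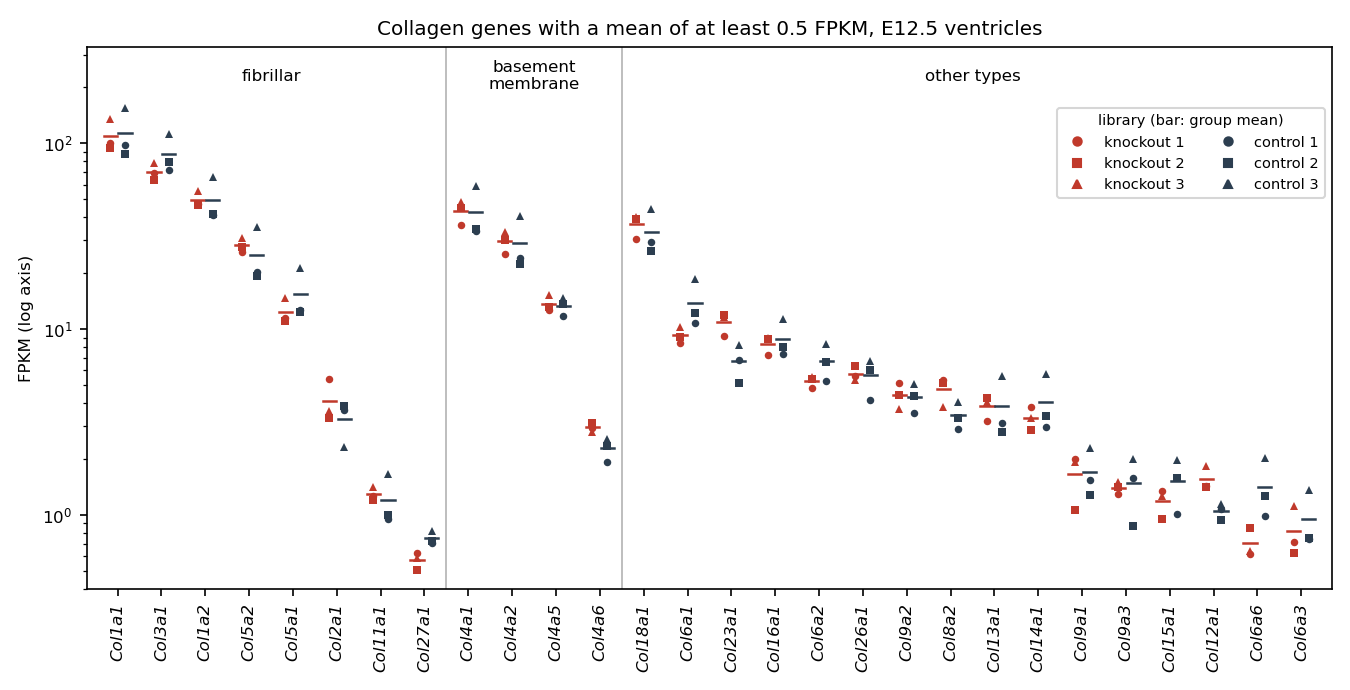
FPKM (log axis) of the 28 tested collagen genes in each library, by class and ordered by mean level; red symbols are knockout, dark symbols control, and bars are group means. The levels span from about 112 FPKM for Col1a1 to 0.66 FPKM for Col27a1, and control replicate 3 (dark triangles) is the highest of the 6 libraries for 21 of the 28 genes.

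The collagen RNA of the ventricles was dominated by the interstitial fibril genes. All 44 genes together summed to 432, 444 and 528 FPKM in the knockout libraries and to 405, 406 and 644 FPKM in the control libraries (exact permutation p = 1.0, two-sided; 3 against 3 libraries cannot go below 0.1). Control replicate 3 had the highest sum and control replicates 1 and 2 the lowest, so the knockout libraries lay inside the control range. Collagens made up 0.110%, 0.121% and 0.138% of all FPKM in the knockout libraries and 0.0998%, 0.104% and 0.155% in the control libraries. Col1a1, Col1a2 and Col3a1 supplied 50.1%, 45.9% and 51.1% of the collagen sum in the knockout libraries, against 52.0%, 51.5% and 51.9% in the control libraries (exact permutation p = 0.1, the smallest possible). The shares of the groups did not overlap, and the gap was narrow except in knockout replicate 2.

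Among the fibrillar genes, those of types I and III had the highest levels. Col1a1, which encodes the main chain of type I collagen, had 99.9, 93.9 and 136 FPKM in the knockout libraries and 97.7, 87.7 and 156 FPKM in the control libraries. Replicate 3 was the highest in both groups and the groups overlapped (log2 change -0.02, SE 0.22). The sign of this value was not stable: it was 0.06 after rescaling to TPM and 0.23 without control replicate 3. The median of all tested genes also moved with TPM, from -0.02 to 0.05, and was -0.02 without control replicate 3. Col1a2, the partner chain of type I, had 47.3, 46.3 and 55.5 FPKM in the knockout libraries and 40.9, 41.8 and 65.9 FPKM in the control libraries, again overlapping. Col3a1, the single chain of type III collagen of vessels and other distensible tissue, had 68.8, 63.8 and 77.9 FPKM in the knockout libraries, against 71.7, 79.6 and 113 FPKM in the control libraries. Its log2 change was -0.30 (SE 0.16, limma adjusted p = 0.411), and -0.11 without control replicate 3. Knockout replicate 3 lay inside the control range for Col3a1, while the other knockout libraries lay below it.

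Type V collagen nucleates type I fibrils and limits their width, and the ratio of its chains separated the groups. Col5a2 had 26.04, 27.6 and 31.0 FPKM in the knockout libraries and 20.3, 19.3 and 35.5 FPKM in the control libraries. Col5a1 had 11.4, 11.01 and 14.6 FPKM in the knockout libraries and 12.7, 12.4 and 21.4 FPKM in the control libraries. For each gene alone the groups overlapped and control replicate 3 was the highest library. Within each library, however, the ratio of Col5a1 to Col5a2 was 0.439, 0.3995 and 0.472 in the knockout libraries, against 0.625, 0.640 and 0.602 in the control libraries. Every knockout ratio was lower than every control ratio, control replicate 3 included, and the log2 difference was -0.51 (SE 0.07, n = 3 each). The exact permutation p was 0.1, the smallest possible, and 0.333 after adjustment over the 10 chain ratios computed. With any 1 library left out the difference lay between -0.57 and -0.45. Col5a1 lies at chr2:27886425-28039514 on the plus strand and Col5a2 at chr1:45374321-45503282 on the minus strand (GRCm38), tail to tail with Col3a1, whose end is 24614 bases away. Exons of other genes cover 2.5% of the Col5a1 exon bases and none of those of Col5a2.

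The other tested fibrillar genes were low. Col2a1, the cartilage fibril collagen, had 5.41, 3.33 and 3.63 FPKM in the knockout libraries and 3.65, 3.85 and 2.33 FPKM in the control libraries. It was the only tested collagen for which control replicate 3 was not the highest control. Col11a1, a minor fibril chain that joins type II and type V molecules, lay between 1.197 and 1.42 FPKM in the knockout libraries and between 0.948 and 1.67 FPKM in the control libraries. Col27a1, a fibrillar collagen of developing cartilage, had 0.625, 0.506 and 0.589 FPKM in the knockout libraries, against 0.707, 0.725 and 0.816 FPKM in the control libraries. All knockout libraries were below all control libraries, at 128 to 205 recovered reads per library, but the log2 change was small (-0.15, SE 0.10, limma adjusted p = 0.488). The 8 tested fibrillar genes had a median log2 change of 0.007, with 4 above and 4 below 0.

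Basement membrane collagen was represented mainly by Col4a1 and Col4a2, the chains found in every basement membrane. Col4a1 had 36.2, 44.6 and 48.2 FPKM in the knockout libraries and 33.8, 34.5 and 59.2 FPKM in the control libraries. Col4a2 had 25.5, 30.2 and 33.4 FPKM in the knockout libraries and 24.1, 22.3 and 40.7 FPKM in the control libraries. The knockout libraries lay above control replicates 1 and 2 and below control replicate 3 for both genes. Their ratio was the steadiest of all: Col4a1 to Col4a2 was 1.42, 1.48 and 1.44 in the knockout libraries and 1.40, 1.55 and 1.45 in the control libraries (log2 difference -0.02, SE 0.04). Across libraries whose Col4a1 level ranged from 33.8 to 59.2 FPKM, the ratio stayed between 1.40 and 1.55.

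These genes lie head to head on chromosome 8, with annotated starts 21 bases apart, so their promoter windows share 78 bases. The windows of 250 bases before to 50 bases after the RefSeq start (GRCm38.p6) are shown because the levels of the pair moved together. Col4a1 is chr8:11312777-11313076 on the minus strand and Col4a2 is chr8:11312555-11312854 on the plus strand. Capitals mark matches on either strand to TATAAA (the TATA box), to CCAAT (the letters recognised by nuclear factor Y) and to GGGCGG (the GC box bound by Sp1 and its relatives).
Col4a1: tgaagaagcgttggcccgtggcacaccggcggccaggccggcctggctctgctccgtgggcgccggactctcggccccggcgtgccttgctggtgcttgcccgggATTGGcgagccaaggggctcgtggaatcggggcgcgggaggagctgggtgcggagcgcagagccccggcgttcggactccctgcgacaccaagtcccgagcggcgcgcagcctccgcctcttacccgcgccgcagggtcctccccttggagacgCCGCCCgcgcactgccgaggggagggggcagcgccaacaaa
Col4a2: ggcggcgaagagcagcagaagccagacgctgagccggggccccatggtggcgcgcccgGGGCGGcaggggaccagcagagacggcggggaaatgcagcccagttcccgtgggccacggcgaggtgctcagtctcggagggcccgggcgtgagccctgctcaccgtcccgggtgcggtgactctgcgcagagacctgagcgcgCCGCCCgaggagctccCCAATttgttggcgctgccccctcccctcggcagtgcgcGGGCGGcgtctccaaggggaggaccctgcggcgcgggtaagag
The Col4a1 window held 1 CCAAT and 1 GGGCGG match, the Col4a2 window 1 CCAAT and 3 GGGCGG matches, and neither held TATAAA. Within a window no matches overlapped each other. The GGGCGG match of Col4a1 and the last one of Col4a2 lie in the 78 shared bases and are the same site, read on opposite strands. GC content was 74.0% in the Col4a1 window and 73.7% in the Col4a2 window.

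The X-linked genes Col4a5 and Col4a6 encode chains of basement membranes of smooth muscle and some epithelia. Col4a6 had 2.94, 3.13 and 2.81 FPKM in the knockout libraries, against 1.94, 2.35 and 2.57 FPKM in the control libraries. All knockout libraries were higher than all control libraries (log2 change 0.27, SE 0.09, limma adjusted p = 0.215). Col4a5 had 12.6, 13.2 and 15.3 FPKM in the knockout libraries and 11.7, 13.7 and 14.7 FPKM in the control libraries, which overlapped. The ratio of Col4a5 to Col4a6 was 4.31, 4.21 and 5.44 in the knockout libraries, against 6.04, 5.84 and 5.73 in the control libraries. The groups did not overlap, with knockout replicate 3, the library with the most Xist and no Ddx3y, nearest to the controls (log2 difference -0.34, SE 0.12; exact permutation p = 0.1, 0.333 after adjustment over the 10 ratios). The part of embryo sex in this difference was not tested. With any 1 library left out the difference lay between -0.46 and -0.28. These genes also lie head to head, but with 1309 bases between their starts, and their promoter windows do not touch: 842 bases separate them. Col4a5 is chrX:141475169-141475468 on the plus strand and Col4a6 is chrX:141474027-141474326 on the minus strand (RefSeq, GRCm38.p6), shown beside the steadier pair above with the same motifs in capitals.
Col4a5: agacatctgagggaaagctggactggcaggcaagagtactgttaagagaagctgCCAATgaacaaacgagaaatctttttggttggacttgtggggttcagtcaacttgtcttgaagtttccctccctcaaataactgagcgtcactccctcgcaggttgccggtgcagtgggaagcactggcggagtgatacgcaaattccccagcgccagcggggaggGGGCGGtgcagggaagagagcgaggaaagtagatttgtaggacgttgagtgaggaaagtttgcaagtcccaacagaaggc
Col4a6: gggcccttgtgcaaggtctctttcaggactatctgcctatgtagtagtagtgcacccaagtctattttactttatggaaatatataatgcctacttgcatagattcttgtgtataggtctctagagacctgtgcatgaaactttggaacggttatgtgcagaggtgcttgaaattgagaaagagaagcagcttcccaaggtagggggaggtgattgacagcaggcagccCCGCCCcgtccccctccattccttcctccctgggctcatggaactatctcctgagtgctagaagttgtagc
The Col4a5 window held 1 CCAAT and 1 GGGCGG match at a GC content of 52.7%, and the Col4a6 window held 1 GGGCGG match at 48.3%. Among all 35 collagen genes with a window in the RefSeq table, 22 (62.9%) held GGGCGG or its reverse complement, as did 35.6% of the 32817 windows in the table. CCAAT was found in 12 (34.3%), as in 37.4% of all windows, and TATAAA in 5 (14.3%), as in 13.6%. These matches describe the letters of the windows only, and the part of the promoter arrangement in the chain ratios was not tested. Col4a3 and Col4a4, the kidney-type chains, are a further head to head pair with starts 72 bases apart, and both were below the test level, at 0.0564 to 0.185 FPKM and 0.117 to 0.253 FPKM over the 6 libraries. The 4 tested type IV genes had a median log2 change of 0.07, all above 0, but the values of Col4a1, Col4a2 and Col4a5 changed sign when single libraries were left out. Of these 4 genes, Col4a6 alone had groups that did not overlap.

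**Figure D2:**
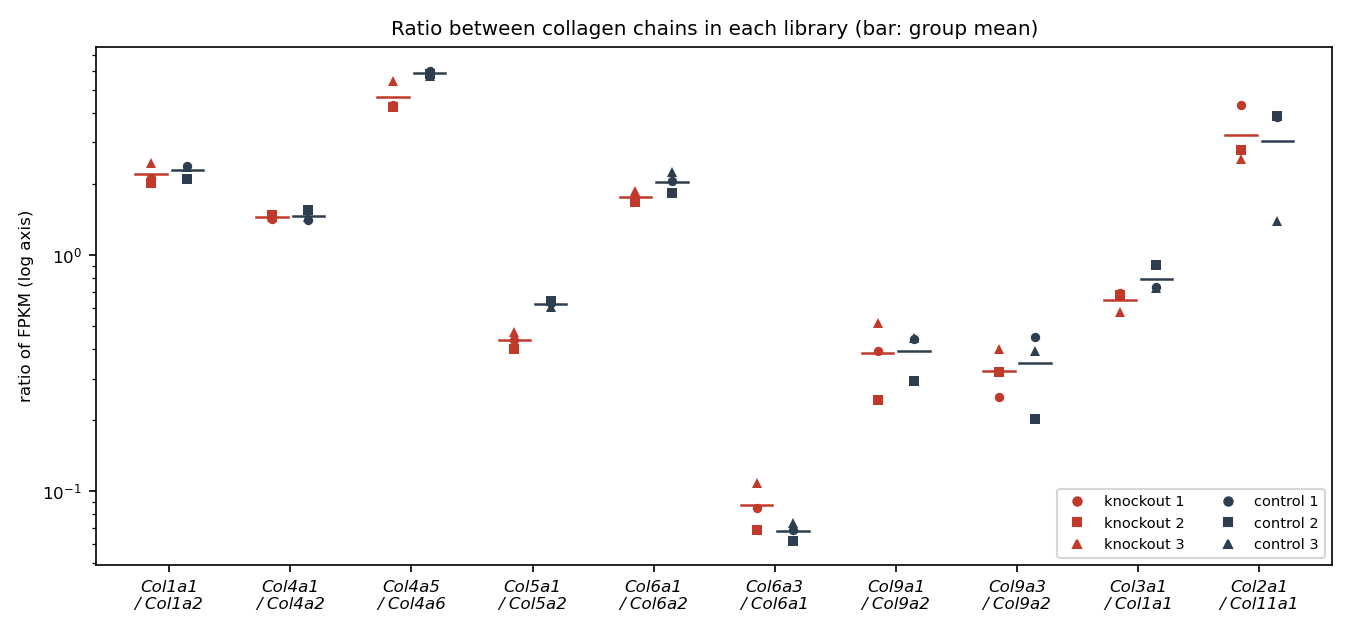
Ratio of FPKM between collagen chains in each library (log axis), with knockout in red, control in dark and bars at the group means. Knockout and control libraries separate for Col5a1 over Col5a2, Col4a5 over Col4a6 and Col3a1 over Col1a1, while Col4a1 over Col4a2 stays within 1.40 to 1.55 in the 6 libraries.

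Of the 10 chain ratios, the groups were also separate for Col3a1 to Col1a1, collagens that share fibrils. It was 0.689, 0.679 and 0.574 in the knockout libraries and 0.734, 0.907 and 0.724 in the control libraries (log2 difference -0.28, SE 0.14; exact permutation p = 0.1, adjusted 0.333). All knockout ratios were below all control ratios, though knockout replicate 1 and control replicate 3 lay close. Col1a1 to Col1a2 was 2.11, 2.03 and 2.45 in the knockout libraries and 2.39, 2.10 and 2.36 in the control libraries, an overlap. The remaining ratios, within types VI and IX and between Col2a1 and Col11a1, overlapped as well. Groups were thus separate for 3 of the 10 ratios, and the share over ratios of other gene pairs was not computed.

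The collagen with the highest log2 change was Col23a1, which encodes a transmembrane collagen whose ectodomain can be shed. It had 9.14, 11.9 and 11.6 FPKM in the knockout libraries, against 6.82, 5.14 and 8.24 FPKM in the control libraries. Every knockout library was higher than every control library, control replicate 3 included, and the ratio of means was 1.62 (log2 change 0.63, SE 0.16, limma adjusted p = 0.101). Col23a1 passed the threshold in some other fits: limma-voom on the recovered reads, limma with library weights, and limma without control replicate 3 (log2 change 0.77, adjusted p = 0.04999). It lies at chr11:51289920-51583918 on the plus strand (GRCm38), and no exon of another gene overlaps it. Its window chr11:51289670-51289969 on the plus strand (RefSeq, GRCm38.p6) is shown as that of the collagen nearest to a call.
Col23a1: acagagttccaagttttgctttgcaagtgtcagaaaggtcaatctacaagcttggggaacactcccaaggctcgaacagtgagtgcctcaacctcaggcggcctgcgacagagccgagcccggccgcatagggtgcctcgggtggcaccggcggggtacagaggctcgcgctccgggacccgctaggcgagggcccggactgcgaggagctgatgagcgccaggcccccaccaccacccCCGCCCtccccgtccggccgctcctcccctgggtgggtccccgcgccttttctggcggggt
It held 1 GGGCGG match, on the reverse strand, and no TATAAA or CCAAT. The transmembrane collagen Col13a1, an organiser of cell to matrix junctions, had 3.18, 4.26 and 4.05 FPKM in the knockout libraries and 3.13, 2.78 and 5.63 FPKM in the control libraries, an overlap.

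Fibril-associated collagens, which coat fibrils and link them to the surrounding matrix, were mixed. Col12a1, the type XII chain of tendon and other tissue under load, had 1.43, 1.40 and 1.84 FPKM in the knockout libraries and 1.07, 0.937 and 1.15 FPKM in the control libraries. All knockout libraries were higher, with 254 to 501 recovered reads per library (ratio of means 1.48, log2 change 0.31, SE 0.10, limma adjusted p = 0.194). In limma-voom on the recovered reads its log2 change was 0.55 and passed the threshold. Col14a1, its closest relative in domain structure, had 3.82, 2.85 and 3.34 FPKM in the knockout libraries and 2.99, 3.41 and 5.72 FPKM in the control libraries, with a log2 change of -0.18 that was 0.04 without control replicate 3. Col16a1 averaged 8.34 ± 0.962 FPKM in knockout and 8.89 ± 2.10 FPKM in control ventricles (SD, n = 3 each). The type IX genes Col9a1, Col9a2 and Col9a3, whose products decorate cartilage fibrils, had means of 1.67, 4.42 and 1.40 FPKM in the knockout and 1.70, 4.32 and 1.49 FPKM in the control ventricles, all overlapping.

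Type VI collagen, which forms beaded microfibrils near the cell surface, had log2 changes below 0 in its 4 tested genes, none of them called. Without control replicate 3 the change of Col6a2 was -0.15 and that of Col6a3 was 0.05. Col6a1 had 8.45, 9.11 and 10.3 FPKM in the knockout libraries, against 10.8, 12.2 and 18.6 FPKM in the control libraries. Each knockout library was below each control library (ratio of means 0.668, log2 change -0.50, SE 0.18, limma adjusted p = 0.223). Col6a6, an alternative chain of the family, had 0.616, 0.855 and 0.641 FPKM in the knockout libraries, against 0.987, 1.26 and 2.01 FPKM in the control libraries. The groups again did not overlap, at 102 to 356 recovered reads (ratio of means 0.496, log2 change -0.49, SE 0.16, limma adjusted p = 0.195). Control replicate 3 was the highest library for both genes, and without it the log2 changes were -0.29 for Col6a1 and -0.32 for Col6a6. Col6a2, the partner of Col6a1, averaged 5.25 ± 0.361 FPKM in knockout and 6.74 ± 1.51 FPKM in control ventricles (SD, n = 3 each), with overlapping groups and a log2 change of -0.29. Col6a3, the long chain of the main molecule, averaged 0.818 ± 0.260 FPKM in knockout and 0.953 ± 0.356 FPKM in control ventricles (SD, n = 3 each). Col6a1 to Col6a2 was 1.75, 1.68 and 1.86 in the knockout libraries and 2.05, 1.83 and 2.25 in the control libraries, with knockout replicate 3 just above control replicate 2 (exact permutation p = 0.2).

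Of the multiplexins, which carry long sugar chains in basement membrane zones, Col18a1 was the most abundant collagen outside the fibrillar and type IV classes. It had 30.7, 39.1 and 40.1 FPKM in the knockout libraries and 29.3, 26.3 and 44.3 FPKM in the control libraries, the same arrangement as Col4a1 and Col4a2 (log2 change 0.16, SE 0.19). That value was 0.38 without control replicate 3 and 0.01 without control replicate 2. Col15a1, its close relative, averaged 1.19 ± 0.211 FPKM in knockout and 1.53 ± 0.486 FPKM in control ventricles (SD, n = 3 each). The short-chain collagen Col8a2 had 5.35, 5.14 and 3.79 FPKM in the knockout libraries and 2.91, 3.33 and 4.07 FPKM in the control libraries (log2 change 0.37, SE 0.14, limma adjusted p = 0.243). Knockout replicate 3 lay inside the control range and the other knockout libraries above it. Col26a1 averaged 5.75 ± 0.507 FPKM in knockout and 5.66 ± 1.34 FPKM in control ventricles (SD, n = 3 each). The 16 tested genes outside the fibrillar and type IV classes had a median log2 change of -0.03, with 7 above and 9 below 0.

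The 16 collagens under the test level had means from 0.498 FPKM (Col8a1) down to 0.0032 FPKM (Col6a4), while Col27a1 lay just inside the limit at 0.661 FPKM. Col8a1, the partner of Col8a2, had 0.721, 0.586 and 0.586 FPKM in the knockout libraries, against 0.297, 0.431 and 0.370 FPKM in the control libraries. The groups did not overlap, at 43 to 102 recovered reads per library, and in a fit of all genes without a level filter the limma adjusted p was 0.251. Col25a1, a transmembrane collagen needed for motor innervation of muscle, had 0.355, 0.398 and 0.437 FPKM in the knockout libraries, against 0.201, 0.239 and 0.340 FPKM in the control libraries. Col24a1, a fibrillar collagen of bone, had 0.0290, 0.0406 and 0.0367 FPKM in the knockout libraries, against 0.135, 0.118 and 0.0952 FPKM in the control libraries, with 4 to 19 recovered reads, too few for a firm direction. Col20a1 had 0.613, 0.1002 and 0.0327 FPKM in the knockout libraries and 0.0738, 0.0656 and 0.141 FPKM in the control libraries, high in knockout replicate 1 alone. The summed markers of neural crest and Schwann precursors were also high in that library, at 18.2 FPKM beside 4.28 and 4.48 in the other knockout and 4.46 to 5.51 in the control libraries; their part in the Col20a1 value was not tested. Col17a1, the hemidesmosome collagen, lay between 0.166 and 0.431 FPKM over the 6 libraries. Col7a1 of the anchoring fibrils, Col11a2, Col22a1, Col5a3, Col28a1, Col19a1, Col6a5, Col10a1 and Col6a4 had at most 0.190 FPKM and 25 reads in any library. No collagen of the 44 passed in the unfiltered fit.

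**Figure D3:**
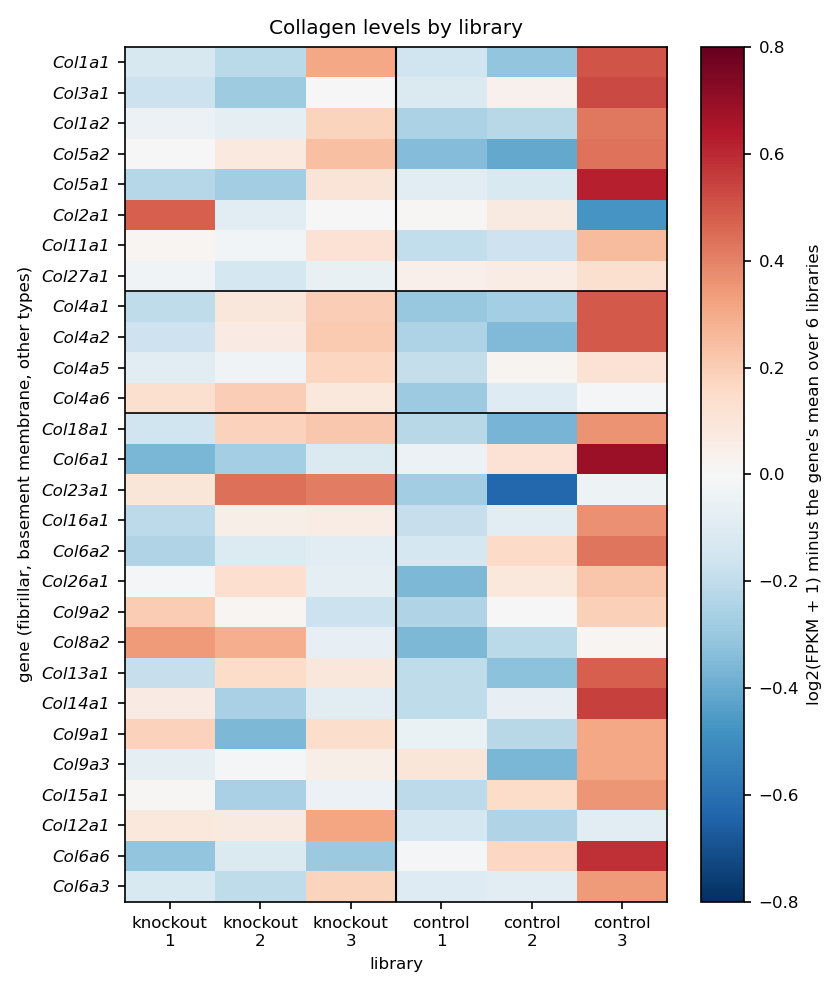
Each tested collagen gene's log2(FPKM + 1) in a library minus its mean over the 6 libraries (colour), with knockout libraries to the left of the line and control libraries to the right. The column of control replicate 3 is red for most genes, with Col2a1 as the clearest blue cell. Col23a1, Col12a1 and Col4a6 also lie slightly below their means in that library.

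Control replicate 3 had more collagen RNA than the other controls. For 27 of the 28 tested collagens it was the highest control library, as it was for 36.4% of all tested genes. For 21 of the 28 it was the highest of all 6 libraries, as for 18.5% of all tested genes. Its level divided by the mean of control replicates 1 and 2 had a median of 1.59 over the collagens, from 0.620 for Col2a1 to 1.90 for Col13a1, and 0.992 over all tested genes. The median was 1.64 for the fibrillar, 1.47 for the type IV and 1.56 for the other genes. Without that library the fit called 2 collagens, both higher in the knockout: Col23a1, and Col5a2 with a log2 change of 0.49 (limma adjusted p = 0.0407). All tested genes were called at 2.69% in that fit. The median change of the collagens was then 0.13, beside -0.02 for all tested genes. Of the 28 collagens, 21 were above 0, and the share of all genes above 0 was not computed for that fit. An unadjusted p under 0.05 was then reached by 11 of the 28, beside 20.9% of all genes. By class, the median without control replicate 3 was 0.33 for type IV, 0.15 for fibrillar and 0.12 for other genes. Left out in turn, the other 5 libraries gave 0 called collagens each, with medians between -0.10 and 0.04. Limma-voom called 2 collagens (Col12a1 and Col23a1, with 3.61% of all genes called) and library weights called 1 (Col23a1, with 3.29%). The fit gave control replicate 3 the lowest weight, 0.463, against 0.986 to 1.41 for the other 5 libraries. No collagen was called lower in these fits or in the other alternatives run.

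**Figure D4:**
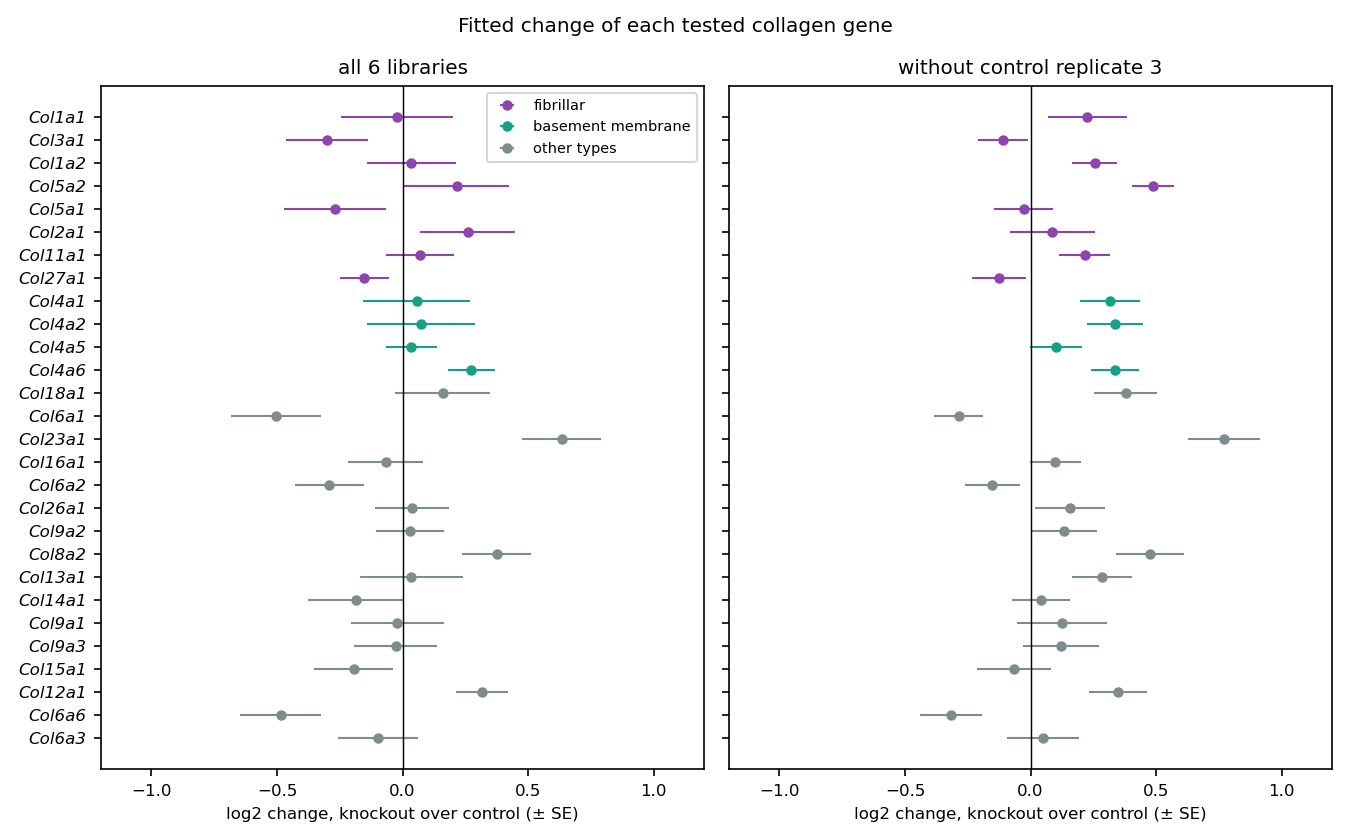
Fitted log2 change of the 28 tested collagens, knockout over control, with bars of ± SE, from all 6 libraries (left) and without control replicate 3 (right); colours give the class. Most points move to the right without that library, from 15 to 21 genes above 0, while 7 genes, Col6a1, Col6a6, Col6a2 and Col3a1 among them, remain below 0.

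The proteins that make, hold and cut collagen were taken as 9 lists of partner genes, 123 in all, of which 122 were matched by symbol and 96 were tested. A single gene of the 96 rose and none fell, where 2.37% of all tested genes were called. The median log2 change was 0.02, and 14 of the 96 had an unadjusted p under 0.05, as did 16.1% of all tested genes. The gene that rose was Tmem38b, an ion channel of the endoplasmic reticulum whose loss in humans causes brittle bones through poor collagen modification. It had 6.08, 7.47 and 6.44 FPKM in the knockout libraries, against 3.29, 3.85 and 3.89 FPKM in the control libraries (ratio of means 1.81, log2 change 0.71, SE 0.09, limma adjusted p = 0.0113). All knockout libraries were higher than all control libraries, and the call held with any 1 library left out. It was lost without a filter on low values. Tmem38b belonged to the 10 tested chaperone and export genes, which had a median of 0.04.

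In biosynthesis, none of the 15 prolyl and lysyl hydroxylase genes was called (median 0.02). P3h4, a partner of lysyl hydroxylase, averaged 44.9 ± 1.80 FPKM in knockout and 51.2 ± 3.34 FPKM in control ventricles, and the prolyl hydroxylase gene P3h2 averaged 6.30 ± 0.661 FPKM in knockout and 5.33 ± 0.496 FPKM in control ventricles (SD, n = 3 each). Exons of other genes cover 28.4% of the P3h2 exon bases. None of the 5 tested procollagen processing genes was called (median 0.07). Adamts2, which removes the amino-terminal propeptide of fibrillar procollagens, had 0.931, 0.867 and 1.08 FPKM in the knockout libraries, against 1.47, 1.48 and 1.75 FPKM in the control libraries (log2 change -0.39, SE 0.10, limma adjusted p = 0.0946). Its relative Adamts14 lay the other way, at 0.767, 0.833 and 0.840 FPKM in the knockout libraries, against 0.417, 0.335 and 0.608 FPKM in the control libraries. The groups did not overlap for either gene, but the control mean of Adamts14, 0.453 FPKM, was under the test level, so it was tested only through its knockout level and its difference is given as a description. None of the 6 tested crosslinking genes was called (median 0.04). Loxl1, a lysyl oxidase relative best known from elastic fibres, averaged 44.8 ± 0.974 FPKM in knockout and 38.2 ± 3.72 FPKM in control ventricles (SD, n = 3 each), without overlap. Loxl3 averaged 1.73 ± 0.140 FPKM in knockout and 1.61 ± 0.0675 FPKM in control ventricles (SD, n = 3 each), and exons of other genes cover 11.6% of its exon bases.

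In the matrix, none of the 11 tested fibril-associated proteoglycan and glycoprotein genes was called (median -0.04, or 0.11 without control replicate 3). Aspn, a small leucine-rich proteoglycan that binds collagen, had 3.64, 2.58 and 3.14 FPKM in the knockout libraries, against 4.40, 4.97 and 5.55 FPKM in the control libraries (log2 change -0.54, SE 0.12, limma adjusted p = 0.0666), without overlap. Its relative Bgn averaged 27.9 ± 3.45 FPKM in knockout and 24.1 ± 3.04 FPKM in control ventricles (SD, n = 3 each). None of the 19 tested basement membrane partners was called (median 0.04, or 0.19 without control replicate 3). Smoc1, a matricellular protein of basement membranes, had 5.16, 8.22 and 8.22 FPKM in the knockout libraries, against 3.21, 2.93 and 5.05 FPKM in the control libraries (log2 change 0.80, SE 0.21, limma adjusted p = 0.112). The groups did not overlap.

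None of the 8 tested collagen receptor genes was called (median 0.02). Adgrg6, an adhesion receptor that binds type IV collagen, had 5.43, 6.64 and 6.61 FPKM in the knockout libraries and 3.32, 3.06 and 5.59 FPKM in the control libraries, with control replicate 3 inside the knockout range (log2 change 0.56, SE 0.18, limma adjusted p = 0.179). Adgrg1, a receptor of type III collagen, averaged 1.33 ± 0.237 FPKM in knockout and 0.820 ± 0.296 FPKM in control ventricles (SD, n = 3 each). None of the 11 tested turnover genes was called (median 0.02). The metalloproteinase genes Mmp11 and Mmp16 averaged 5.97 ± 0.553 and 1.16 ± 0.137 FPKM in knockout and 7.34 ± 0.322 and 0.827 ± 0.0831 FPKM in control ventricles (SD, n = 3 each). None of the 11 tested regulators of collagen transcription was called (median 0.02). Scx, the scleraxis factor of tendon and valve cells, averaged 4.998 ± 0.851 FPKM in knockout and 6.58 ± 0.947 FPKM in control ventricles, and Creb3l2 17.1 ± 1.07 FPKM in knockout and 15.4 ± 0.575 FPKM in control ventricles (SD, n = 3 each).

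The cells that supply collagen were followed through 11 lists of marker genes. The 9 fibroblast and perivascular markers were all tested and summed to 47.3 to 47.7 FPKM in the knockout libraries, against 49.3 to 61.3 FPKM in the control libraries, and their median log2 change was -0.14, or -0.04 without control replicate 3. Of these, Kcnj8, a potassium channel gene of pericytes, fell: it had 1.96, 1.76 and 2.15 FPKM in the knockout libraries, against 3.21, 3.68 and 3.80 FPKM in the control libraries (log2 change -0.63, SE 0.09, limma adjusted p = 0.0147). It was the only call among the 9, where 2.37% of all tested genes were called. That call was lost in 3 of the 6 leave-one-out fits, those without knockout replicate 1, knockout replicate 2 or control replicate 2. The 12 endothelial and endocardial markers summed to 297 to 370 FPKM in the knockout libraries and 239 to 338 FPKM in the control libraries, with a median change of 0.24, or 0.39 without control replicate 3, and none called. Npr3, an endocardial marker, had 18.4, 22.2 and 22.9 FPKM in the knockout libraries, against 13.9, 12.2 and 17.6 FPKM in the control libraries. Control replicate 3, the library with the highest collagen, was the highest control for 36.4% of all tested genes. Among the tested markers it was the highest control for 12 of 12 endothelial, 8 of 9 red blood cell, 7 of 9 fibroblast and perivascular, 7 of 10 cushion and 5 of 11 epicardial genes. It was so for 2 of 5 smooth muscle, 1 of 11 cardiomyocyte, 2 of 3 cartilage and 3 of 5 neural crest genes, and for none of the 4 epithelial and 3 liver genes. The 10 cushion mesenchyme markers summed to 94.2 to 101 FPKM in the knockout and 98.7 to 112 FPKM in the control libraries, and the 11 epicardial markers to 320 to 353 FPKM in the knockout and 293 to 369 FPKM in the control libraries, with none called and medians of -0.02 and 0.02 (0.08 and 0.07 without control replicate 3). The part of these cell types in the collagen levels was not tested.

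The other lists checked the dissection. The 11 ventricular cardiomyocyte markers summed to 6539 to 6952 FPKM in the knockout and 6636 to 7402 FPKM in the control libraries, with none called. The 7 smooth muscle markers summed to 1073 to 1257 FPKM in the knockout and 861 to 1431 FPKM in the control libraries, with none of the 5 tested called. Exons of other genes cover 67.9% of the exon bases of Tagln, which averaged 1.88 FPKM in knockout and 1.53 FPKM in control ventricles. Cartilage markers summed to 10.97 to 11.97 FPKM in the knockout and 7.78 to 15.7 FPKM in the control libraries. The list shares Hapln1 with the cushion mesenchyme list, so its sum does not measure cartilage alone. The other tested cartilage markers, Comp and Cnmd, averaged 1.01 and 0.893 FPKM in knockout and 0.760 and 0.551 FPKM in control ventricles. Of the 10 listed cartilage genes, Acan, Matn1, Ucma and Snorc had means under 0.1 FPKM. Cartilage collagens such as Col2a1 and Col9a2 were detected in the same libraries. The 10 epithelial markers summed to 50.05 to 65.3 FPKM in the knockout and 35.9 to 51.0 FPKM in the control libraries, and of the 4 tested, Krt8 and Epcam were called higher, where 2.37% of all tested genes were called. Krt8, a keratin of simple epithelia, had 27.4, 20.8 and 20.3 FPKM in the knockout libraries, against 14.4, 12.49 and 12.54 FPKM in the control libraries (log2 change 0.74, SE 0.12, limma adjusted p = 0.0241). This call was lost in 3 of the 6 leave-one-out fits, those without knockout replicate 2, control replicate 2 or control replicate 3. Epcam had 1.17, 1.09 and 0.768 FPKM in the knockout libraries, against 0.372, 0.165 and 0.0254 FPKM in the control libraries. Its control mean of 0.188 FPKM was under the test level, so it was tested only through its knockout level, and of the 6 leave-one-out fits it was called in 1, without control replicate 1. Of the 10 listed epithelial genes, Cdh1, Trp63, Sftpc, Nkx2-1 and Foxa2 had means under 0.1 FPKM. Liver markers summed to 5.602 to 7.22 FPKM in the knockout and 3.42 to 6.46 FPKM in the control libraries, and red blood cell markers to 7911 to 16520 FPKM in the knockout and 8043 to 18000 FPKM in the control libraries. None of these, nor of the cartilage and neural crest markers, was called.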

How the data were processed

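Ventricle RNA of 3 knockout and 3 control samples (E12.5) was compared, with groups and replicate numbers from the sample labels. TRIzol RNA and an NEBNext Ultra RNA kit were used, per the labels' protocols. That kit does not record strand, so reads from overlapping exons of a gene and its antisense neighbour cannot be told apart. Whether such reads were counted or dropped is not given in the sources used here. Tools listed by the submitters' processing notes are featureCounts 1.5.0-p3, HISAT2 2.0.5, fastp and CASAVA, with the build mm10; in which order and with what options they ran is not given in the sources used here.

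In 1 table, the authors deposited FPKM for 54532 Ensembl gene IDs. Names, exons and coordinates came from GENCODE M21 (GRCm38, the assembly of mm10), which named 54495 IDs. FPKM times exon length fell on whole-read steps: for genes with fewer than 30 reads, 98.1% to 98.5% of the values were whole to within 0.02. The smallest median chi-square per gene between libraries was 1.83, against 0.455 for sampling noise, so no library was a copy of another.

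The 14149 genes averaging 0.5 FPKM or more were fitted on log2(FPKM + 1) with limma 3.58.1 (R 4.3.3; mean-variance trend, two-sided, genotype only, Benjamini-Hochberg adjusted p under 0.05). Chain ratios used exact permutation tests, two-sided, adjusted over 10 ratios. Alternatives were another pseudocount (0.1), no filter, a mean of at least 5 FPKM, TPM, quantile normalization, rescaling without haemoglobin and mitochondrial genes, limma-voom on recovered reads, no trend, library weights, a replicate block and leaving out each library.

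The collagen genes and the 20 gene lists were chosen with earlier results of these data known. Full values are given for collagens whose groups did not overlap, the 10 with the highest mean, and both chains of each separating ratio. From each partner list the text gives up to 4 called genes or, with no call, those 2 with the lowest p (1 gene so taken is not reported here); values of other collagens were added after they were seen. Promoter windows are from RefSeq; collagens without one there are named only. Python 3.11.15 made the tables and figures.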

Additional observations from a re-analysis of the deposited data

How the results depend on the processing

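The number of collagens called higher in the knockout was 0, and 2 with limma-voom on recovered reads, 1 with library weights and 0 to 2 with each library left out. The number called lower was 0 throughout. Partner genes called higher numbered 1, and 0 without a filter on low values, 2 with limma-voom (Smoc1 and Tmem38b), 3 with library weights (Adgrg6 besides) and 1 to 5 with each library left out, the 5 without control replicate 3 (Agrn and Nid1 as well). Those called lower numbered 0, and 2 with limma-voom (Adamts2 and Aspn) and 0 to 1 with each library left out (P4ha2, without control replicate 3). Of all tested genes, 2.37% were called in either direction in the main fit and 3.61% with limma-voom. The share was 3.29% with library weights and 2.69% without control replicate 3. The log2 change of Col1a1, -0.02, was 0.062 with TPM, 0.054 with quantile normalization, 0.051 without haemoglobin and mitochondrial genes and 0.081 with library weights. The median of all tested genes, -0.015, was 0.054 with TPM, -0.016 with quantile normalization and 0.045 without haemoglobin and mitochondrial genes. With each library left out the log2 change lay between -0.184 and 0.226 for Col1a1, -0.083 and 0.255 for Col1a2, -0.080 and 0.316 for Col4a1, -0.085 and 0.336 for Col4a2, and -0.052 and 0.101 for Col4a5. These genes have no stable direction. The median change of the tested collagens lay between -0.10 and 0.13 under these alternatives. The cause of these shifts was not tested. Same-numbered libraries correlated at -0.002, 0.140 and 0.164, and differently numbered ones at -0.189 to 0.0798, so 0.140 and 0.164 were the highest values. The sources used here do not say whether the numbers pair samples, and the main fit left them unpaired. A fit with the replicate number as a block called 0 collagens and 1 partner gene, Tmem38b. With 3 libraries a group the exact tests could not pass 0.05, and collagens under 0.5 FPKM rest on few reads.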
